A study of Homo sapiens with 5 samples.

Results

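Among 4 trastuzumab-resistant gastric cancer cell lines, N87-TR3 was compared with N87-TR1, N87-TR2 and N87-TR4 across every gene with a probe detected (detection p under 0.01) on at least 1 of the 4 arrays. These were 11815 of the 20044 genes that the array names. N87-TR3 had 1 array and the other lines 1 array each, so the comparison set 1 array against 3. In the same series NCI-N87, a trastuzumab-sensitive gastric cancer line, was measured on 1 array. It stood outside the comparison, and its levels are given beside the others as a description.

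All lines were kept in RPMI medium with serum, and total RNA was taken from subconfluent cells. The labels call the 4 lines resistant but do not say how each was derived, whether it is a single clone, whether the drug was present at harvest, or whether cultures were separate. Any p-value therefore reflects no more than how far the arrays of the other 3 resistant lines scatter, part of which may be technical. The lone N87-TR3 array adds nothing to that spread and was assumed to vary like the other 3.

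Trastuzumab is an antibody against ERBB2 (HER2), a receptor tyrosine kinase that signals mainly in pairs with other ERBB receptors and is amplified in a subset of gastric cancers. Cells that grow in its presence can lose the target, engage other receptors, or change their cell state. On a BeadChip each gene is read by one or more short probes, each lying in a particular stretch of the transcript, so probes of the same gene can report different changes. Levels below are background-corrected, quantile-normalized log2 intensities, and a difference is the level in N87-TR3 minus the mean of the other 3 resistant lines.

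The N87-TR3 array stood apart from the others before any gene was considered. Its 75th percentile of raw signal was 293.3, against 320.7 in N87-TR1, 373.7 in N87-TR2 and 432.7 in N87-TR4, while its 99th percentile, 14646, lay within their range of 12455 to 17350. It detected 16118 probes, against 17747 to 18617 on the others. Of the 10107 genes detected in all 3 other lines, 497 were missing in N87-TR3. Only 172, 115 and 66 genes were missing in N87-TR1, N87-TR2 or N87-TR4 alone while detected in the remaining 3. N87-TR3 alone detected 95 genes, fewer than the 194 to 255 detected in a single other line.

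Pairs of lines that included N87-TR3 lay farther apart. Between 1769 and 1915 genes differed at least 2-fold in such a pair, against 463 to 970 in the pairs without it. Across genes, which are not independent replicates, Pearson's r was 0.935 to 0.941 with N87-TR3 and 0.961 to 0.976 without it.

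Probes of the same gene also disagreed more when N87-TR3 was one of the lines. For 2124 genes with at least 2 probes detected in all 4 lines, the difference of 2 lines was computed from each probe, and the spread is the highest minus the lowest value for the gene. That spread exceeded 1 on the log2 scale, a 2-fold disagreement between probes, in 21.3% to 22.6% of genes in the 3 pairs with N87-TR3. In the 3 pairs without it the share was 1.60% to 3.06%. The median spread was 0.48 to 0.49 with N87-TR3 and 0.21 to 0.24 without. With all 3 pairs of each kind averaged, the shares were 21.8% and 2.24%, and with the authors' processed values 13.3% and 0.330%. Because this property of the array moves with every gene result below, further detected probes are reported beside the genes that passed and the receptor and marker genes described. The part of the signal or of the probe disagreement in any result was not tested. The test assumes that the N87-TR3 array varies like the other 3. The probe spread did not bear this out, so the p-values below may be too small. The position of each probe within its transcript was not used here.

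**Figure D1:**
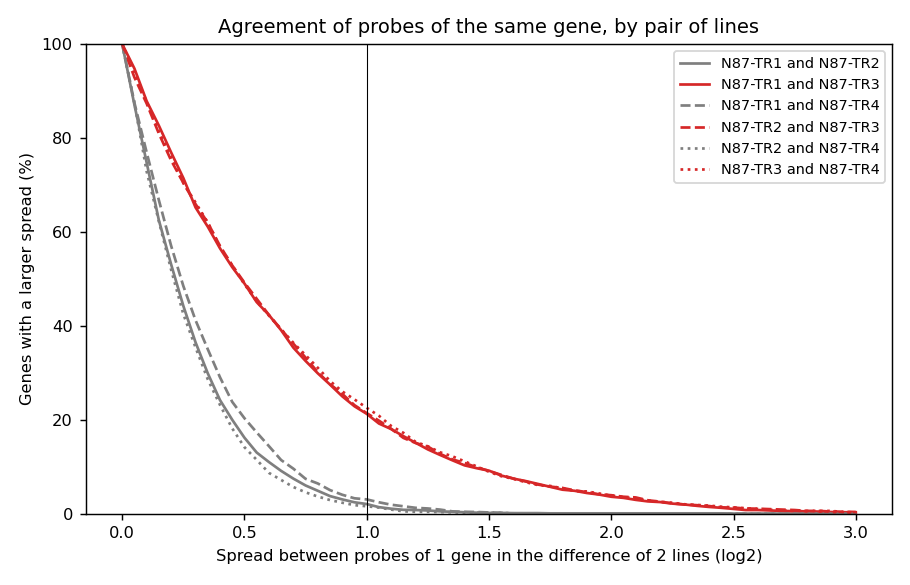
Percent of 2124 genes with several probes (vertical axis) whose probes disagreed by more than the log2 spread on the horizontal axis, for each pair of resistant lines, with pairs that include N87-TR3 in red and the others in grey. At a spread of 1, the vertical line, the red curves stood at 21.3% to 22.6% and the grey curves at 1.60% to 3.06%.

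At an adjusted p under 0.05 (limma, Benjamini-Hochberg), 114 of the 11815 genes differed between N87-TR3 and the other lines, which is 0.965% of those tested. Of these, 106 were lower in N87-TR3 (0.897%) and 8 were higher (0.0677%). The smallest called difference, as fitted, was 1.89 on the log2 scale and the adjusted p-values ran from 0.0232 to 0.0490. At an unadjusted p under 0.05 there were 1223 genes higher and 1027 lower, so the excess of decreases belonged to the large differences. At least 4-fold differences numbered 131 down and 11 up, while at least 2-fold differences numbered 759 down (6.42%) and 700 up (5.92%). N87-TR3 lay above all 3 other lines for 4589 genes (38.8%) and below all of them for 3065 (25.9%), and the median difference over all genes was 0.10.

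The number of genes past the test fell whichever other line was left out. Those fits had fewer residual degrees of freedom than the 2 of the main fit. The fall was largest for N87-TR1 and N87-TR4, which does not show that these lines carried the differences. Without either of these no gene passed in limma, with 2754 and 1479 genes at an unadjusted p under 0.05, and without N87-TR2 71 genes passed. Without moderation of the variances 0 genes passed, with 1548 at an unadjusted p under 0.05. In each of these fits all 114 differences kept their sign, which could not have come out otherwise. N87-TR3 lay outside the range of the other 3 lines for all 114, and moderation does not change a difference. The split also moved with the scaling: 95 genes were higher and 253 lower without background correction, and 84 and 256 with the authors' processed values.

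Decreases were found over the whole range of levels. In 5 bins of 2363 genes ordered by mean level, the dimmest first, 15, 43, 26, 17 and 5 genes were called lower, and 6, 2, 0, 0 and 0 higher. The median difference in the same bins was 0.05, 0.23, 0.16, 0.08 and 0.05. For 64 of the 106 lower genes the probe used was not detected in N87-TR3, and for 57 no probe of the gene was. Such genes have only a bound, given as "at least". The bound sets the mean of the other lines against the lowest detected level on the N87-TR3 array or the probe's own level there. It holds for the background correction and offset used here. The probes of the 64 genes entered the comparison only through the other lines, where they were high. Their adjusted p-values are thus no separate support. Without a detection filter 13 genes passed in limma, all of them lower. With 44 of the lower genes a further detected probe could be read: 23 had at least 1 such probe 2-fold or more lower, 21 had none, and 2 had one 2-fold or more higher.

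**Figure D2:**
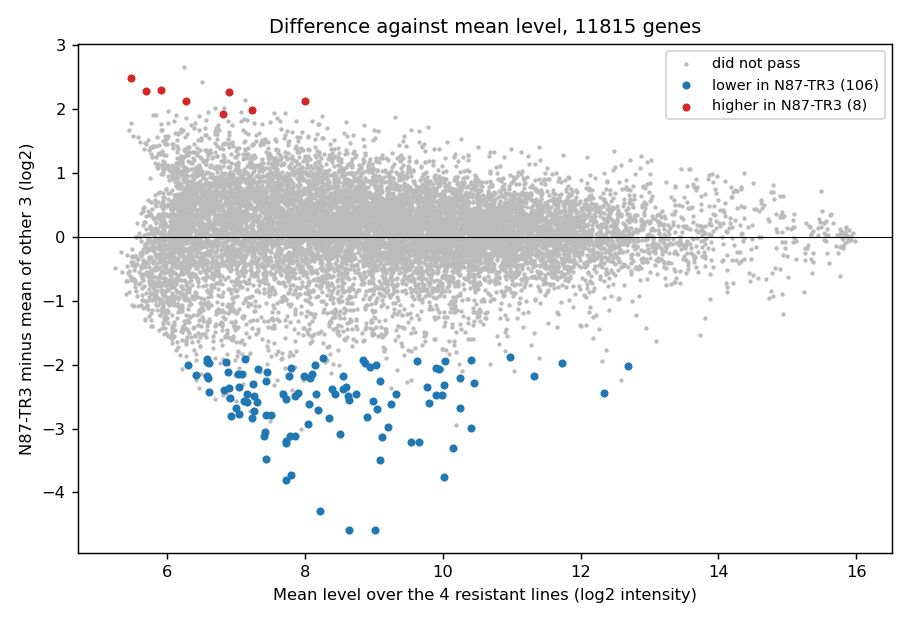
Log2 difference of N87-TR3 from the mean of the other 3 resistant lines (vertical axis) against the mean log2 intensity over the 4 lines (horizontal axis) for 11815 genes, 1 point each. The 106 genes that passed as lower (blue) spread over levels from dim to bright, while the 8 that passed as higher (red) sat among the dimmer genes.

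CXCR4, the receptor for the chemokine CXCL12 and a guide of cell migration, stood at 10.31, 9.83 and 9.25 in N87-TR1, N87-TR2 and N87-TR4 and at 5.21 in N87-TR3. The probe was detected in the 3 other lines and not in N87-TR3 or NCI-N87 (adjusted p = 0.0266), so only the levels are given. A second probe of CXCR4 read 8.59, 8.16 and 7.90 against 7.16, a difference of -1.06, and was detected in all 4 lines. Both probes placed N87-TR3 below all the other resistant lines, and its transcript was detected there by the second.

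GNAQ, the alpha subunit of a G protein that couples receptors to phospholipase C, read 8.20, 8.61 and 8.80 in the other lines and 5.30 in N87-TR3, where its only detected probe fell below detection. It was at least 3.61-fold lower (adjusted p = 0.0320). A pair of G protein gamma subunits, which fall outside the rule for named genes and were chosen after their values were seen, also fell. GNG10 was at 10.92, 11.24 and 11.33 against 8.17 (-2.99 ± 0.30, SE, adjusted p = 0.0295; second probe -1.16), and GNG12 at 9.35, 9.92 and 9.91 against 7.04 (-2.69 ± 0.34, adjusted p = 0.0360). JAK1, the kinase attached to many cytokine receptors, likewise chosen after its values were seen, fell 4.01-fold (adjusted p = 0.0447) and was detected in every line.

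LBR, the lamin B receptor, an inner nuclear membrane protein that tethers heterochromatin and also acts as a sterol reductase, read 10.71, 11.07 and 11.11 in the other lines and 7.21 in N87-TR3. This 13.5-fold decrease (-3.76 ± 0.30, adjusted p = 0.0257) was accompanied by a lower second probe, which read 9.87, 9.99 and 9.59 against 6.15 and was not detected in N87-TR3. NCI-N87 stood at 10.95, among the other resistant lines.

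XPOT, the exportin that carries mature tRNA out of the nucleus, fell 9.23-fold, from 9.94, 10.74 and 10.34 to 7.13 (adjusted p = 0.0352). HNRNPK, an abundant RNA-binding protein outside the naming rule and chosen after its values were seen, fell 5.44-fold (-2.44 ± 0.29, adjusted p = 0.0352). Its 4 probes differed by -2.44, -2.67, -0.87 and -0.33, the last not detected in N87-TR3. By the probes detected there N87-TR3 was lower, but not to the same extent. TCEA1, a transcription elongation factor also chosen after its values were seen, fell 4.87-fold in the probe used (adjusted p = 0.0439). Its 2 further probes were detected in the 3 other lines and not in N87-TR3. PSMC4, an ATPase subunit of the proteasome chosen in the same way, fell 5.56-fold (-2.48 ± 0.28, adjusted p = 0.0339), and its 2 further probes differed by -2.43 and -1.98. All 3 probes of PSMC4 were detected in every line and gave differences close to one another.

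The decreases of this paragraph rested on a single probe or split between probes, except that of KLF10, which was lower by both of its probes. MOCS2, which encodes subunits of the enzyme that makes molybdopterin, read 9.28, 9.12 and 9.47 against 4.99, not detected (adjusted p = 0.0241). Its second probe was detected in N87-TR3 and 1 other line and was 0.63 higher in N87-TR3. SLC25A24, a mitochondrial carrier of ATP-Mg and phosphate, was at least 4.13-fold lower, at 8.43, 8.58 and 9.18 against 5.00 (adjusted p = 0.0295), whereas its second probe read 6.04 in N87-TR3, within the range of the others, and was not detected there. SPG21, the gene of the maspardin protein, gave -3.13 ± 0.29 (adjusted p = 0.0266) and, in further probes, -1.79 and 0.46. In MOCS2 and SPG21 the probes did not share the sign of the difference. KLF10, a zinc-finger transcription factor induced by TGF-beta, was at least 3.07-fold lower (adjusted p = 0.0447). Its second probe read 7.86, 7.51 and 8.20 against 5.45, and neither of its 2 probes was detected in N87-TR3. SFR1, a partner in homologous recombination, was at least 9.73-fold lower (adjusted p = 0.0257), and ITPRID2 at least 3.98-fold lower (adjusted p = 0.0257).

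Several called genes have a near-identical copy whose probe reported another value, and probes of such copies may cross-hybridize. These copies were looked up after the values were seen. EIF3CL, a copy of the translation initiation factor subunit EIF3C, had the lowest adjusted p in the comparison, 0.0232. It read 10.05, 10.21 and 10.25 in the other lines against 5.58 in N87-TR3, at least 11.2-fold lower. The probe of EIF3C itself read 8.71, 8.39 and 8.55 against 8.91, a difference of 0.36 ± 0.29 that did not pass (adjusted p = 0.549). ROCK1P1, a pseudogene of the kinase ROCK1, was not detected in N87-TR3 and was at least 3.59-fold lower (adjusted p = 0.0257), and ROCK1 differed by 0.26 ± 0.28 (adjusted p = 0.676). FAM72B fell 9.26-fold (adjusted p = 0.0257; second probe -1.71), while its copies FAM72A and FAM72D differed by -1.52 and -0.28 and did not pass. TVP23C, not detected in N87-TR3, was at least 3.86-fold lower (adjusted p = 0.0352), and its paralog TVP23B differed by -1.60 ± 0.31, which did not pass (adjusted p = 0.0765). The lower level in N87-TR3 was thus read by the probes assigned to EIF3CL and ROCK1P1 and not by those of the parent genes.

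**Figure D3:**
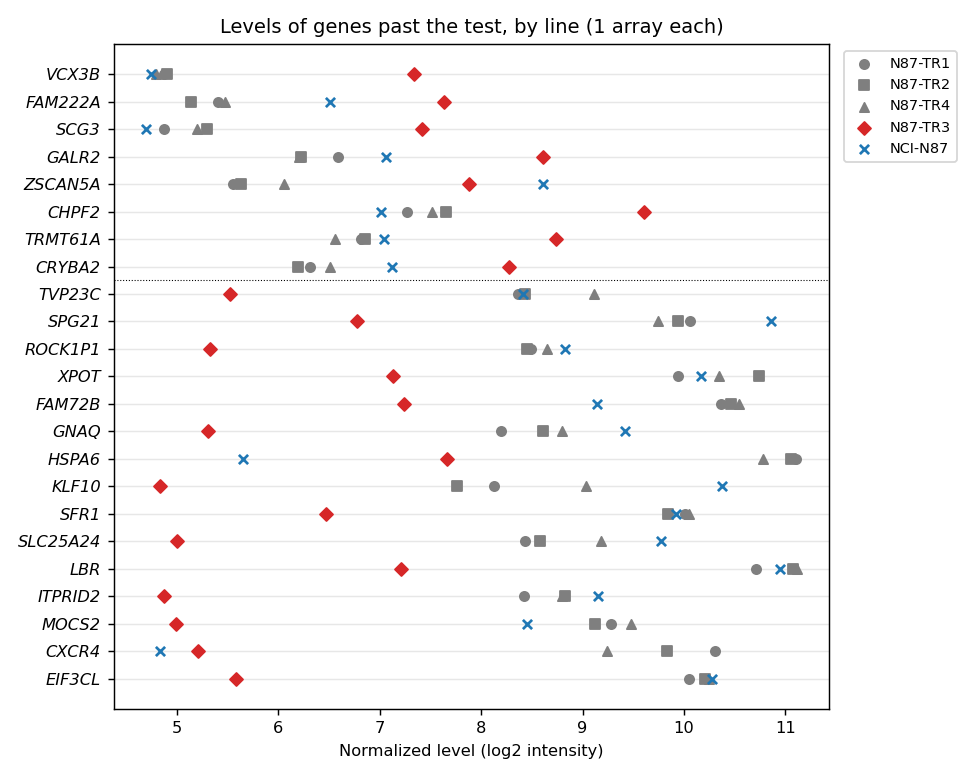
Log2 intensity (horizontal axis) in each line, 1 array each, for the 8 genes higher and the 15 most strongly lower genes in N87-TR3, separated by a dotted line. For each gene the red diamond of N87-TR3 lies outside the grey symbols of the other resistant lines, and the blue cross gives NCI-N87.

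The 8 increases had fitted differences of 1.93 to 2.48 on the log2 scale, and 4 of them came from probes detected in no other resistant line. These 4, VCX3B, FAM222A, SCG3 and ZSCAN5A, entered the comparison only through N87-TR3, where they were high. Their adjusted p-values are thus no separate support. Without a detection filter no gene passed as higher in limma. SCG3, secretogranin III, a granin of neuroendocrine secretory granules, had a second detected probe. The one used read 4.88, 5.30 and 5.19 in the other lines, none detected, against 7.41 in N87-TR3, at least 2.26-fold higher (adjusted p = 0.0372). The second probe gave 5.49, 5.10 and 5.16 against 6.94 and was also detected only in N87-TR3. GALR2, a receptor for the neuropeptide galanin, stood at 6.59, 6.22 and 6.21 against 8.61, a 4.81-fold increase (adjusted p = 0.0372).

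CHPF2, a glycosyltransferase that helps to polymerize chondroitin, had the brightest signal of the 8. It rose 4.37-fold, from 7.27, 7.65 and 7.52 to 9.61 (adjusted p = 0.0409). TRMT61A, the catalytic subunit of a tRNA methyltransferase that makes 1-methyladenosine, rose 3.98-fold, from 6.81, 6.86 and 6.56 to 8.74 (adjusted p = 0.0447). For both, N87-TR3 was clear of the other lines and of NCI-N87, at 7.01 and 7.05.

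VCX3B, an X-linked gene of a family expressed in testis, was at least 2.15-fold higher (adjusted p = 0.0339). FAM222A (adjusted p = 0.0360) and the zinc-finger gene ZSCAN5A (adjusted p = 0.0486) were at least 2.64-fold and 3.12-fold higher. Both were detected in NCI-N87. FAM222A read 6.51 there, below the 7.64 of N87-TR3, while ZSCAN5A read 8.61, above the 7.88 of N87-TR3. CRYBA2, a beta-crystallin gene, read 6.31, 6.20 and 6.51 against 8.27 (adjusted p = 0.0459), but its second probe, at 6.12 in N87-TR3, lay within the range of the other lines. The next largest increases did not pass, and their differences are as fitted. LY6G6D was at 2.66 (adjusted p = 0.0957), SYP at 2.42 (0.0973), NFKBIB at 2.14 (0.107), CARMIL2 at 2.02 (0.265), CDK2AP2 at 2.01 (0.0507), and JOSD2 and RAB36 both at 1.96 (0.0636 and 0.0761).

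Of the 12 heat shock genes listed and tested, HSPA6 alone passed. Heat shock proteins are chaperones that hold or refold other proteins, and the transcription factor HSF1 induces many of them through heat shock elements, repeats of the motif GAA and its reverse complement. HSPA6, a strictly inducible HSP70, read 11.10, 11.05 and 10.78 in the other resistant lines, 7.67 in N87-TR3 and 5.65, not detected, in NCI-N87. N87-TR3 lay between the sensitive line and the other resistant lines, 9.93-fold below the latter (-3.31 ± 0.29, adjusted p = 0.0259). The related inducible gene HSPA1A read 15.28, 15.13 and 15.21 against 14.85, with NCI-N87 at 11.06. Its difference of -0.35 ± 0.27 did not pass (adjusted p = 0.537), nor did that of HSPA1B, -0.62 ± 0.28 (adjusted p = 0.294). DNAJB6, an HSP40 co-chaperone outside the list and chosen after its values were seen, read 11.79, 11.88 and 11.95 against 9.69, a 4.53-fold decrease (adjusted p = 0.0355). Its second probe differed by -0.23.

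The other 9 of the 12 heat shock genes ranged from -0.50 for HSPE1, a mitochondrial co-chaperonin, to 0.40 for HSPA8, the constitutive HSP70, and none passed. HSP90AA1 differed by -0.09, DNAJB1 by -0.01 and the HSF1 target BAG3 by 0.31. HSPA6 had 1 detected probe, so no second probe bears on it. HSPA1A and HSPA1B are near-identical and their probes may read either.

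**Figure D4:**
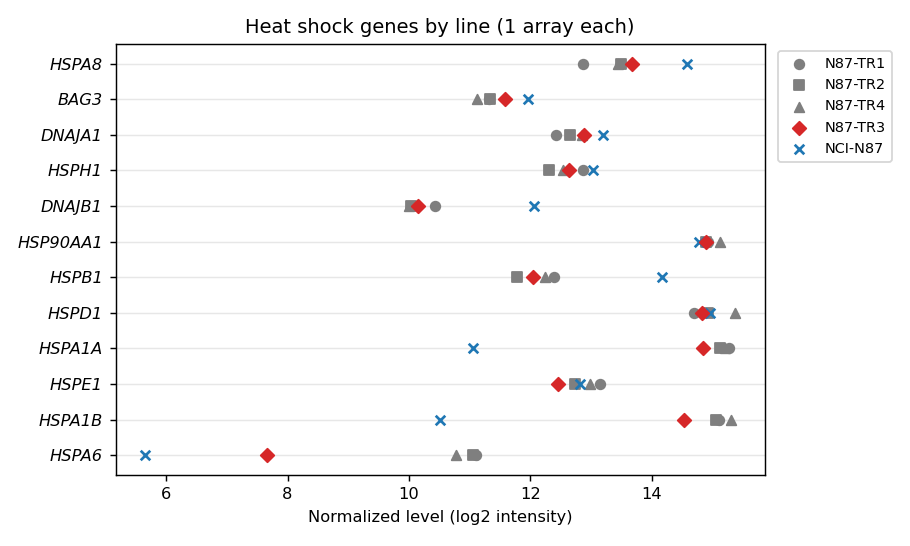
Log2 intensity (horizontal axis) of 12 heat shock genes in each line, 1 array each, ordered by the difference of N87-TR3 from the other resistant lines. N87-TR3 (red) sits with or near the other resistant lines (grey) for all but HSPA6, where it stands at 7.67 between NCI-N87 (blue) at 5.65 and the others at 10.78 to 11.10.

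The promoters of HSPA6, HSPA1A, HSPA1B and HSPA8 are shown because these genes did not differ alike. Each holds a match to the core motif of the heat shock element. The sequences are RefSeq's, GRCh38.p14, from 250 bases before to 50 after the gene's start, 300 bases in all, printed 5′ to 3′ on the gene's strand. Capitals mark GAANNTTC, the core of the element, searched on both strands, which read alike because the motif is its own reverse complement. The motif was chosen after the values were seen. HSPA6 lies at chr1:161524290-161524589 on the plus strand, HSPA1A at chr6:31815293-31815592 (plus), HSPA1B at chr6:31827488-31827787 (plus) and HSPA8 at chr11:123062087-123062386 (minus).
HSPA6: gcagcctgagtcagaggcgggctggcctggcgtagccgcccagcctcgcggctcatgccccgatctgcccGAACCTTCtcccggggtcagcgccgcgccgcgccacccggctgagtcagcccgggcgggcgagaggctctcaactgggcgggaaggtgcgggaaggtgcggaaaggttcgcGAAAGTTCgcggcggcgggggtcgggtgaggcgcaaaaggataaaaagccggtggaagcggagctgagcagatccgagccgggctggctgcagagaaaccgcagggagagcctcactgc
HSPA1A: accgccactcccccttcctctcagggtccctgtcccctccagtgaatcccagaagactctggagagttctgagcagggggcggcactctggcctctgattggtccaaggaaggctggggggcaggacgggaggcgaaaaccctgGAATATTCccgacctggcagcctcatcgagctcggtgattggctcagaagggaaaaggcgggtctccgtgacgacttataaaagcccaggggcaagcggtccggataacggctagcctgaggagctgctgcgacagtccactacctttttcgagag
HSPA1B: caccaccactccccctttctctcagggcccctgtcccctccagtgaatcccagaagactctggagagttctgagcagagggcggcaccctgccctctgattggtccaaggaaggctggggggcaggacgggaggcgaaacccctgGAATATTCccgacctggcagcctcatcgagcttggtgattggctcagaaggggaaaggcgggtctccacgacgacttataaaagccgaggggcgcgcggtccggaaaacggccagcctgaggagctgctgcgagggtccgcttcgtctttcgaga
HSPA8: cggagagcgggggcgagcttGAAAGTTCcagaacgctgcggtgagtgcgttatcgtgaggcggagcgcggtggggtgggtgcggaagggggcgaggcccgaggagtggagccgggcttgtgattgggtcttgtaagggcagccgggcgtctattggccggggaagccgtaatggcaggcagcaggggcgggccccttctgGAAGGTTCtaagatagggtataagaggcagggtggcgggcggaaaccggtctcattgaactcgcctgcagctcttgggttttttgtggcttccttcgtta

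HSPA6 and HSPA8 each held 2 motifs in this window, and HSPA1A and HSPA1B 1 each. HSPA6, which fell, and HSPA8, at 0.40, thus held the same number of matches. The motif was present in 6 of the 12 heat shock promoters (50%), in 439 of the 9499 promoters of tested genes that the table holds (4.62%) and in 6.87% of all 27305 promoters. Of the genes lower in N87-TR3 with a promoter in the table, 3 of 82 held it (3.66%), and none of the 8 higher genes did. A match describes the letters only. In 5 bins of rising promoter GC content the median difference was 0.08, 0.10, 0.12, 0.11 and 0.14.

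Across 42 gene lists, 784 different genes were tested and 7 passed, in 6 of the lists. This was 0.893% of them, near the 0.965% over all genes. List medians are read beside the median of all genes, 0.10, since scaling each array to its 75th percentile alone moved that median to 0.31. They ranged from -0.45 to 1.21 among the 40 lists with at least 3 tested genes. List members named without having passed, the fixed receptor and marker genes apart, were chosen after their values were seen. The neural and neuroendocrine markers had the highest median, which the detection filter shaped: the other 4 listed markers were detected in no resistant line, and SCG3 entered only through N87-TR3, where it was high. Of 6 tested markers of the 10 listed, SCG3 rose and the other 5 did not pass. SYP, synaptophysin, a membrane protein of synaptic vesicles, read 6.74, 5.63 and 5.36 against 8.33 in N87-TR3 (adjusted p = 0.0973). CHGA, chromogranin A, read 6.34, 6.35 and 5.49 against 7.39 (adjusted p = 0.174). For both, N87-TR3 was the highest of the 4 lines, but INSM1 (difference 0.21), CALCA (1.08) and POU3F2 (-0.72) lay within the range of the others.

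Among 24 tested genes of the neuronal cytoskeleton and vesicles, members past the test moved in both directions. SCG3 rose, while ELAVL2, a neuronal RNA-binding protein, and MAP1B, a microtubule-associated protein of growing axons, fell. ELAVL2 read 8.55, 8.03 and 7.84 against 5.35, where it was not detected, at least 2.74-fold lower (adjusted p = 0.0366). MAP1B read 8.89, 9.70 and 9.23 against 6.72, a 5.88-fold decrease (-2.56 ± 0.38, adjusted p = 0.0450). In both, N87-TR3 lay below all 3 other resistant lines and the list's median was 0.18.

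Single members of 3 further lists fell. PLSCR1, an interferon-induced phospholipid scramblase, read 7.46, 7.46 and 7.80 against 5.42, not detected, at least 1.85-fold lower (adjusted p = 0.0396). Over its list of 31 interferon-stimulated genes the median was 0.45, with N87-TR3 above all others for 14 and below for 5, beside 38.8% and 25.9% of all genes. RRM2, the small subunit of ribonucleotide reductase, which supplies deoxynucleotides for DNA synthesis, fell 4.98-fold, from 10.47, 10.86 and 10.48 to 8.29 (adjusted p = 0.0372). It was the only one of 44 cell cycle genes to pass, and their median was 0.13. CASP8, the initiator caspase of death receptors, read 6.91, 7.46 and 7.08 against 4.94, at least 1.38-fold lower (adjusted p = 0.0447). Its second probe read 6.85, 6.90 and 7.44 against 4.73, and both were detected in the 3 other lines and not in N87-TR3. The remaining 27 apoptosis genes did not pass, with a list median of 0.26.

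The insulin-like growth factor list had the lowest median and the NOTCH list a low one, and neither held a gene past the test. Between them lay the epithelial, mesenchymal and ERBB lists, at -0.33, -0.32 and -0.30. For 13 genes of the insulin-like growth factor axis the median was -0.45, with N87-TR3 below all others for 10 and above for 1, beside 25.9% and 38.8% of all genes. IGFBP5, a secreted binding protein of these growth factors and one of the brightest genes of the resistant lines, read 14.58, 14.44 and 14.87 against 13.94 (-0.69 ± 0.30, adjusted p = 0.289; second probe -0.35). NOTCH genes had a median of -0.28, with N87-TR3 below all others for 10 of 21, again beside 25.9% of all genes. Its target HES5 stood at 12.84, 10.17 and 11.66 against 9.46 (adjusted p = 0.285), the ligand DLL1 at 9.70, 7.93 and 8.63 against 7.51 (adjusted p = 0.348), and the DNA-binding factor RBPJ at 9.01, 9.41 and 9.75 against 7.87 (adjusted p = 0.104). In each N87-TR3 was the lowest of the 4 lines, and for HES5 the other lines themselves spread over more than 2 log2 units.

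No epithelial or mesenchymal gene of the lists passed. The 19 epithelial genes had a median of -0.33 and the 18 mesenchymal genes -0.32. VIM, vimentin, the intermediate filament of mesenchymal cells, read 13.78, 14.37 and 14.23 against 13.16 (-0.97 ± 0.33, adjusted p = 0.202; second probe -0.59). CDH1, the epithelial cadherin, differed by -1.27 ± 0.67 (adjusted p = 0.364), KRT8 by 1.44 ± 1.04 (adjusted p = 0.513) and KRT18 by -1.56 ± 0.32 (adjusted p = 0.0869), with its second probe not detected in N87-TR3. EPCAM differed by -0.74, and by -0.13 and -0.90 in further probes. MUC1 differed by 0.03 in the probe used, while its second probe read 5.45, 5.91 and 5.36 against 6.72 and was detected only in N87-TR3. KRT19, an epithelial keratin at 15.51 in NCI-N87, was detected in none of the 4 resistant lines. Among markers of other cell types, 1 of 9 fibroblast, 3 of 13 leukocyte and 1 of 8 endothelial genes were detected in any resistant line, and none passed.

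None of the receptors named here passed. ERBB2 read 10.22, 10.73 and 10.54 in the other lines and 10.31 in N87-TR3, within their range (-0.18 ± 0.32, adjusted p = 0.801), with NCI-N87 at 15.90. FGFR3, a fibroblast growth factor receptor, read 13.03, 12.52 and 12.90 against 12.77 (-0.05 ± 0.32, adjusted p = 0.959; 0.59 in its second-brightest probe). EGFR read 8.16, 8.86 and 7.96 against 7.31, below all 3 other lines (-1.01 ± 0.41, adjusted p = 0.251), and its second probe differed by -0.39. ERBB3 read 8.22, 6.36 and 7.19 against 6.33, where it was not detected (adjusted p = 0.506; second probe 0.14). MET differed by 0.28 and FGFR4 by 0.58 (second probe -0.08), both within the range of the other lines. In the list of genes induced by MAPK signalling, with a median of 0.31, the transcription factor ETV5 differed by 1.88 and MYC by -1.89, neither past the test (adjusted p = 0.180 and 0.0723).

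Genes used as references were not equally steady. GAPDH and ACTB differed by -0.12 and -0.15, whereas PPIA, a peptidyl-prolyl isomerase, read 9.61, 10.13 and 9.97 against 8.06 (-1.85 ± 0.32, adjusted p = 0.0644). YWHAZ, a 14-3-3 protein, read 13.90, 14.14 and 14.31 against 12.58 (-1.53 ± 0.30, adjusted p = 0.0751). Neither passed, and in both N87-TR3 was below all other lines. The 24 ribosomal protein genes had a median of -0.02 and the 38 respiratory chain genes 0.07.

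**Figure D5:**
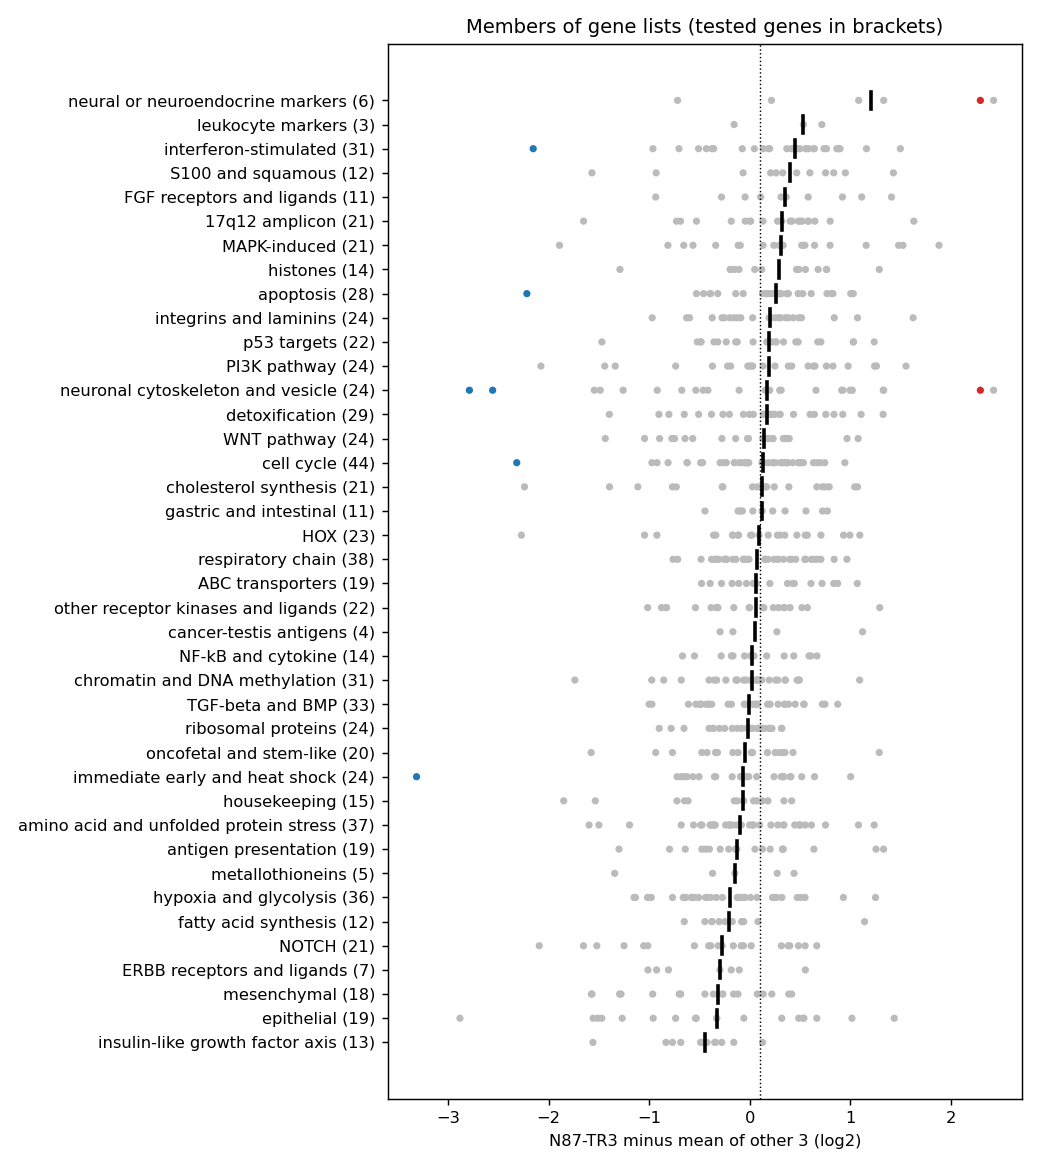
Log2 difference of N87-TR3 from the other 3 resistant lines (horizontal axis) for the tested members of 40 lists, 1 point per gene, with blue for genes past the test as lower, red for higher and grey for the rest. Black bars give list medians, from -0.45 to 1.21, and the dotted line the median of all genes, 0.10.

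Differences varied with chromosome position. With genes placed by the GRCh38.p14 gene table, the highest chromosome medians were 0.40 on chromosome 19 and 0.37 on chromosome 16, and the lowest -0.07 on chromosome 4. On chromosome 19, 105 genes were at least 2-fold higher and 14 at least 2-fold lower, and on chromosome 16 the numbers were 79 and 17, whereas over all chromosomes increases and decreases of this size were about equally frequent. Over 11250 overlapping windows of 25 neighbouring tested genes the median was 0.09. The highest was 0.85 for the chromosome 16 window from ZNF174 to NAGPA, in which 21 of 25 genes were above the mean of the other lines. Next came 0.78 from MATCAP1 to PSMB10, also on chromosome 16, and 0.76 from ZNF112 to OPA3 on chromosome 19, in which 24 of 25 were above it. The lowest were -0.64 from FKBP7 to PMS1 on chromosome 2, -0.58 from IL6ST to ERBIN on chromosome 5 and -0.54 from HDAC2 to NKAIN2 on chromosome 6. These 6 windows held 1 called gene in all, and no difference smaller than 1.89 was called in any gene. The windows were chosen for their values and carry no test.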

How the data were processed

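Biotin-labelled cRNA from 5 cell lines was hybridised to Illumina BeadChips, 1 array per line, per the labels' protocols. The authors deposited a scanner-level signal intensity for 47318 probes, linear and not normalized, and beside it a detection p-value. GenomeStudio is the tool in the submitters' processing notes, which give no version. The authors also deposited processed intensities, whose median was 146.3 on every array, by a method that the sources used here do not give. They served as an alternative.

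Of the probes, 30111 had 1 gene symbol, 8 several and 17199 are unnamed here; symbols were updated by gene ID for 30072 through RefSeq's GRCh38.p14 table. Signals were background corrected from the detection p-values, quantile normalized over 5 arrays with an offset of 16 and put on the log2 scale (limma 3.58.1, R 4.3.3). A gene's probe was the detected one with the highest mean over the 4 resistant arrays, a mean that N87-TR3 enters once and the others 3 times; 3179 genes had more than 1 detected probe. N87-TR3 was tested against the other resistant lines, chosen by label, with lmFit and eBayes, two-sided, Benjamini-Hochberg adjusted (2 residual and 4.30 prior degrees of freedom). Errors are standard errors of the fit. The number of arrays limits the precision.

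The rule for named genes took the 15 largest differences in each direction past the test, filled with the next largest that lay outside the other lines where fewer passed, up to 4 passing members of each list, and 21 fixed receptor and marker genes. Genes and 42 lists were chosen with earlier results of these data known. Alternatives were other background corrections, offsets, scalings, filters, probe choices, variance models and thresholds, and fits without 1 of the lines. The fit was also run on simulated data in which N87-TR3 varied like the other lines, so that run does not test this assumption. Counts of list members carry no test.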

Additional observations from a re-analysis of the deposited data

How the results depend on the processing

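Fewer probes were above background on the N87-TR3 array, with 1 array a line and 2 residual degrees of freedom. The 114 called genes kept their sign in every setting except detection on all 4 arrays (46 of 49 tested) and the second-brightest probe (35 of 46, with 19 past the test). Where only the threshold, the variance model or the lines in the fit changed, the sign could not turn. Counts past the test, with higher and lower in brackets, were 348 (95 and 253) without background correction, 220 (40 and 180) with an offset of 50, 57 (4 and 53) with 75th percentile scaling, 340 (84 and 256) with the authors' processed values, 403 (88 and 315) with a variance trend, 39 (1 and 38) with the mean of a gene's probes, 13 (0 and 13) without a detection filter, and 184 (34 and 150) among genes above the median level. Detection on all 4 arrays gave 125 genes, 30 of them higher and 95 lower. The limma counts were 0 (0 and 0) at an adjusted p under 0.01 and without variance moderation, where 2250 and 1548 genes had an unadjusted p under 0.05. Leaving out 1 of the other lines gave 0 to 71 genes, 0 to 2 higher and 0 to 69 lower. Cyclic loess gave 135, the 4 arrays alone 113, and a robust prior and a 2-fold limit 114 each. The size of the differences moved too, so the folds and bounds above hold for the main scale only. Over the alternatives EIF3CL ranged from -4.64 to -2.97, SFR1 from -3.66 to -2.41 and GALR2 from 1.35 to 2.39 on the log2 scale. No paired analysis was made, since the comparison set different lines with 1 array each.

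Probe alternatives were chosen after seeing the data. The second-brightest probe gave 401 (43 and 358) of 3179 genes, and the brightest probe of the same genes 188 (21 and 167). Genes with 1 probe gave 11 (0 and 11), and all detected probes 642 (82 and 560). The share of genes with probes over 2-fold apart was, in pairs with and without N87-TR3, 13.9% and 0.361% without background correction, 18.5% and 1.26% with an offset of 50, 13.3% and 0.330% with processed values, 23.5% and 1.99% with loess and 24.8% and 2.02% with 75th percentile scaling. That scaling moved the median of all genes from 0.10 to 0.31 and turned the sign of ERBB2 (0.096), FGFR3 (0.42), CDH2 (0.17), MYH10 (0.39) and SMAD4 (0.25). MUC1 was at -0.18 under loess, and FGFR3 at 0.27 with the mean of its probes, between -0.19 (without N87-TR2) and 0.059 (without N87-TR1) when a line was left out, and 0.59 with its second probe. SMAD4 was at -0.13 without N87-TR1, 0.016 without N87-TR2 and 0.067 without N87-TR4. The second probe also turned MOCS2 (0.63), ERBB3 (0.14) and FGFR4 (-0.078). The cause was not tested for any of these.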

Other observations

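The genes of this paragraph passed the test, lie outside the naming rule and were chosen after their values were seen. TMED10, a cargo receptor of vesicles between endoplasmic reticulum and Golgi, read 10.73, 10.96 and 11.09 in N87-TR1, N87-TR2 and N87-TR4 against 8.24 in N87-TR3 (-2.68 ± 0.29, limma adjusted p = 0.0339). SEC23A, a coat protein of the same vesicles, read 9.09, 8.94 and 9.15 against 6.60, not detected (adjusted p = 0.0339), while its second probe was detected only in N87-TR3, at 6.74 against 5.21, 5.51 and 4.92. TNFAIP8, a regulator of cell death, was at 8.55, 8.59 and 8.56 in the other lines, an SD of only 0.02, and at 5.45, not detected, in N87-TR3, at least 3.68-fold lower (adjusted p = 0.0257). BCL10, an adaptor of NF-kB signalling, read 8.04, 7.82 and 7.81 against 5.40, at least 2.31-fold lower (adjusted p = 0.0339), while its second probe, also not detected in N87-TR3, lay within the range of the others. ADAM10, a protease that sheds cell-surface proteins, was at least 4.26-fold lower (adjusted p = 0.0366), with neither of its 2 probes detected in N87-TR3. SUMO2, a small modifier protein, fell 4.06-fold in the brighter probe (adjusted p = 0.0372), whereas its other probe differed by -0.02. KPNA2, a nuclear import receptor, showed the same split, at -1.98 (adjusted p = 0.0452) and 0.01.

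Probes without a single gene symbol were not part of the comparison. When each detected probe was tested on its own with limma, in 1 fit over both kinds, 33 of the 4660 unnamed or ambiguous probes were higher in N87-TR3 and 210 lower (5.21% past the test). Of the 15797 named probes in that fit, 97 were higher and 602 lower (4.42%).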
